A study of Junonia coenia with 24 samples.

Results

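Chromatin accessibility was compared in the hindwing of the buckeye butterfly Junonia coenia between the 5th larval instar and the pupa labelled 6 d after pupation. The comparison used 6 of the 24 libraries of the series, 3 for each stage. Its members were all intervals of the hindwing table that passed a filter on low read counts, 258640 of the 488675 intervals listed. Both groups were untreated whole wing tissue of animals reared at about 27 °C, and no strain, sex or genotype is given in the labels. The series as a whole holds forewings and hindwings at 4 labelled stages, which also include the prepupa and the pupa at 72 h, with 3 libraries for each of the 8 groups. The titles of the libraries labelled 6 d say day 7. The 2 stages are not successive, so the comparison spans the other 2 labels.

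The wing of a butterfly grows in the larva as an imaginal disc, a folded epithelium inside the body that is patterned while it grows. At the end of larval life pulses of the steroid hormone ecdysone start metamorphosis: the disc everts, is covered by pupal cuticle, and its epithelial cells differentiate into scale-building cells, socket cells and the cells between them. In the later pupa the scales harden and fill with pigment. In ATAC-seq (assay for transposase-accessible chromatin with sequencing) the Tn5 transposase cuts and tags DNA where nucleosomes leave it free. The read count of an interval is therefore taken as a measure of how open its chromatin is, and promoters and enhancers in use are typically open.

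The intervals had a median width of 137 bp, those tested 251 bp, and lay on 959 contigs. No genome build is stated in the sources read for these contigs, and genes were not assigned. Intervals are named by contig, first and last base, counted from 1. Whole wings were assayed, so a lower share of one cell type and a lower accessibility within each cell cannot be told apart. The labels number the replicates without saying that they came from separate animals, and the design text speaks of left and right wings without saying which library holds which. The p-values therefore measure only the spread between these libraries, which may be technical.

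Total counts in intervals were 6977525, 9442306 and 8983481 in the libraries of the 5th instar and 8207135, 9017148 and 7040817 in those labelled 6 d. Reads were more concentrated at the 5th instar, where the 1% of intervals with the most reads held 22.9% of the counts in replicate 1 and 32.1% and 30.6% in the others. In the libraries labelled 6 d this share was 15.9% to 17.1%. The spread between replicates was wider at the 5th instar too, with a median coefficient of variation of 24% against 12.1% at 6 d. Each median was taken over intervals with a mean of at least 10 CPM in that group, so the sets of intervals were chosen separately. CPM is the usual depth-scaled read count, here with library sizes adjusted by TMM, the trimmed mean of M-values. Spearman correlations across intervals were 0.742 to 0.777 between libraries of the 5th instar, 0.791 to 0.828 between those labelled 6 d and 0.505 to 0.540 over the 9 pairs across the groups. Each pair of replicates differed by more than sampling noise, with a chi-square of 1.99 to 3.19 per interval.

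Replicate 3 of the 6 d group stood apart on a set of whole contigs. On 29 of 640 contigs with at least 20 intervals its summed reads per library total were at least 1.5 times those of each other replicate of the group, with a median ratio of 1.80. These contigs held 4.08% of its counts and 2.24% of those of both other libraries labelled 6 d. Their share was 1.98% to 2.21% at the 5th instar, and raised as well in replicate 2 of the prepupa (4.15%) and replicate 3 of the 72 h group (4.12%). No sex is given in the labels, and the cause was not tested. On these contigs, which were chosen after their values were seen, 946 of 8075 tested intervals were called rising (11.7%) and 545 falling (6.75%). Without replicate 3 of the 6 d group 334 of 8664 were called rising (3.86%) and 629 falling (7.26%). Leaving the contigs out gave 20320 rising and 37459 falling intervals in the table as a whole, and none of the 25 intervals named by rule lies on them.

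The label of the 6 d group was checked against the forewing, whose libraries are separate. Over 126344 intervals matched between the tables and centred on the mean of the stages of each wing, the profile of the hindwing group labelled 6 d correlated at 0.918 with the forewing group labelled prepupa. Against the forewing libraries labelled 6 d the value was −0.53. The 3 libraries each behaved so, with 0.781 to 0.823 for the forewing prepupa and −0.48 to −0.45 for the forewing 6 d. The profile of the hindwing 5th instar was closest to the forewing 5th instar, at 0.841. The other hindwing labels did not match either: the libraries labelled 72 h were closest to the forewing 6 d (0.890, against −0.31 for the forewing 72 h) and those labelled prepupa to the forewing 72 h (0.536, against 0.238 for the forewing prepupa). These correlations run across intervals, which are not independent replicates. The labels prepupa, 72 h and 6 d thus did not correspond between the wings. Which wing departs from its labels, if either does, cannot be told from these correlations. The labels were kept as given, and each value below for 6 d comes from the libraries that carry this label.

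On the TMM scale accessibility fell at more intervals than it rose, and the falls were larger. Of the 258640 tested intervals, 57650 (22.3%) differed between the stages, 20025 of them being higher at 6 d (7.74%) and 37625 being lower (14.5%), by edgeR's quasi-likelihood test at a Benjamini-Hochberg adjusted p under 0.05. The median log2 change was 1.54 among rising and −2.11 among falling intervals, against 0.07 over all tested intervals. A change of at least 4-fold was found at 5065 rising and 20401 falling intervals, and one of at least 8-fold at 1551 and 9859. The 3 libraries of one stage all lay above the 3 of the other at 107551 intervals (41.6%), among them 55721 of the 57650 called. The split of the calls depended on the scaling. With library totals in place of TMM factors the median over all intervals moved from 0.07 to 0.47, and 46012 intervals were called rising and 27622 falling. Each direction below is relative to the TMM scale, on which the typical interval was near no change. The number of rising calls also depended on single libraries, being 11177 without replicate 2 and 11644 without replicate 3 of the 5th instar, and 12475 and 12348 without replicate 1 and replicate 2 of the 6 d group.

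Falling intervals were more open in the larval wing than intervals that were not called, and rising ones more open in the libraries labelled 6 d. Both lists were chosen by this contrast in the same libraries, so their levels are a description and no test. Falling intervals had a median of 4.18 CPM at the 5th instar and 1.13 CPM at 6 d. Rising intervals had a median of 1.21 CPM at the 5th instar and 3.58 CPM at 6 d. Per kilobase of interval, the median level of falling intervals was 14.2 CPM at the 5th instar and 3.89 CPM at 6 d, and that of rising ones 3.22 and 9.36 CPM. Intervals that were not called stood at 6.32 and 7.21 CPM per kilobase. Rising intervals were the widest, with a median width of 370 bp against 298 bp for falling intervals and 236 bp for those not called. Calls of either direction were made at 14% of intervals up to 200 bp and 46% of those over 2000 bp. The part of precision in these widths was not tested.

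The falling intervals held a large part of the larval signal. They took 39.9%, 50% and 48.6% of the signal in tested intervals in the 3 libraries of the 5th instar, and 15.6%, 16.1% and 15.8% in those labelled 6 d. Rising intervals took 4.94%, 3.68% and 3.84% at the 5th instar and 15.1%, 15.1% and 14.7% at 6 d. These shares describe intervals chosen by the same contrast and are no test. Replicate 1 of the 5th instar, whose reads were the least concentrated of its group, had the lowest share in falling and the highest in rising intervals.

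**Figure D1:**
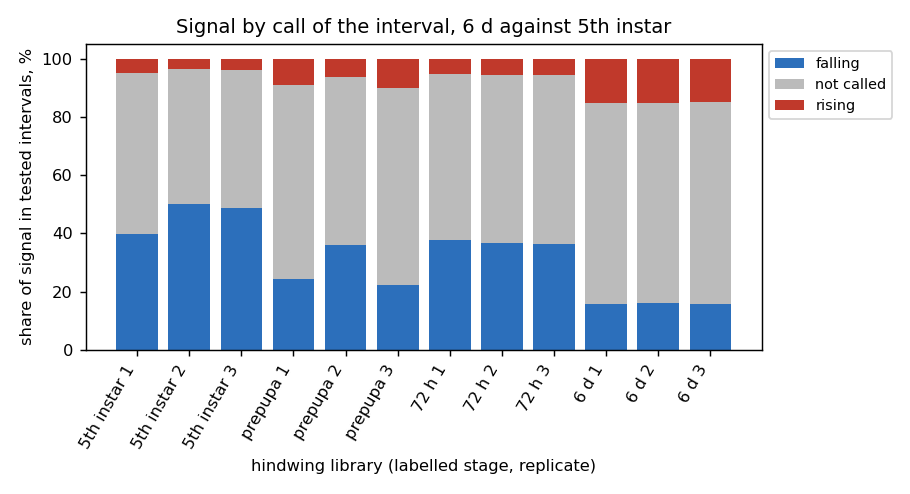
Share of the signal in tested intervals (%, vertical axis) that lay in intervals called falling, not called and called rising between the 5th instar and 6 d, one stacked bar for each of the 12 hindwing libraries. Falling intervals held 39.9% to 50% of the signal at the 5th instar and 15.6% to 16.1% at 6 d.

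The means of the other 2 hindwing groups did not enter the contrast that called these intervals. Their libraries did take part in the low-count filter, the scaling and the estimate of spread. With only the 6 libraries compared 202099 intervals were tested, so levels in the other groups helped to choose the intervals described here. The mean of the libraries labelled prepupa lay between the 2 groups at 88.9% of rising and 84.2% of falling intervals, with median levels of 2.08 CPM and 2.37 CPM. The prepupa libraries were not alike, so a mean in between does not show that each library was intermediate. Falling intervals took 36% of the signal in replicate 2 of the prepupa and 24.2% and 22.3% in its other libraries. Rising intervals took 6.34% in replicate 2 and 9.13% and 10.1% in the others. All these shares lay between those of the larval and the 6 d libraries. The mean of the libraries labelled 72 h lay between the 2 groups at 49.9% of rising and 51.2% of falling intervals. At 39.8% of rising intervals it was below both groups, and at 40.0% of falling intervals above both. The labels prepupa and 72 h are also among those that did not correspond between the wings. At these intervals the 72 h group was often further from the 6 d group than the larval one was.

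Above 1 CPM the share of intervals that fell was higher in each higher class of level. Among 1104 intervals with a mean over 50 CPM in the 6 libraries, 895 fell (81.1%) and 16 rose (1.45%). The median log2 change of this class was −1.84. Between 20 and 50 CPM 59.8% fell and 6.10% rose, and between 10 and 20 CPM 43.4% fell and 11.7% rose. In the class from 1 to 2 CPM the shares were 8.06% and 5.99%. The 55552 intervals under 1 CPM stood outside this order, with 13.6% falling and 4.25% rising. The pattern depended on the scaling. When a loess offset removed the trend of the change with the level, 38.4% of the intervals over 50 CPM fell and 29.6% rose, with a median of −0.09. With library totals in place of TMM factors, 78.5% of them fell and 3.99% rose.

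**Figure D2:**
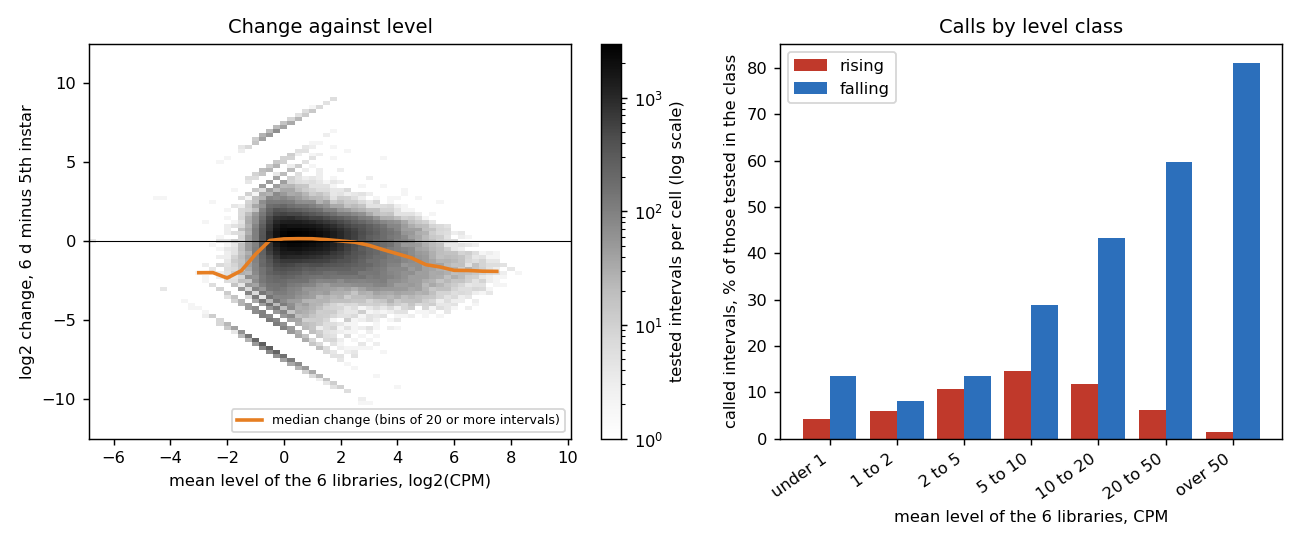
Left, log2 change from the 5th instar to 6 d against the mean level of the 6 libraries (log2 CPM), grey shade giving the number of tested intervals on a log scale and the orange line the median; right, percentage of tested intervals called rising and falling in each class of mean CPM. Falling calls were 13.6% under 1 CPM, 8.06% at 1 to 2 CPM and 81.1% over 50 CPM, where 1.45% rose.

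Between 10 and 20 CPM the prevailing direction differed with the width of the interval. Of intervals between 10 and 20 CPM, 92.0% of those up to 500 bp wide fell and 1.54% rose. Among intervals of the same level but wider than 1000 bp, 25.7% rose and 9.20% fell. Between 20 and 50 CPM, 93% of the narrow and 37.5% of the wide intervals fell, and 3.82% and 10.2% rose, so that falls prevailed at both widths. Over 50 CPM 12 of 13 narrow intervals fell, as did 77.3% of the 903 wide ones, of which 1.77% rose. Without regard to level, intervals wider than 2000 bp rose (24.2%) about as often as they fell (21.8%), whereas those up to 200 bp rose in 2.73% and fell in 11.3% of cases. Wide intervals also had more reads, with a median of 33.7 CPM over 2000 bp against 0.958 CPM up to 200 bp, and the part of precision in these shares was not tested. At equal CPM a narrow interval also has more reads per base. The shares by width are those of the TMM scale and were not computed under the other scalings.

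Among intervals that fell at least 2-fold with groups apart, the most strongly covered ones kept a part of their signal. At contig 000148F, 71204 to 71667, the 3 larval libraries stood at 1290, 1390 and 1500 CPM and those labelled 6 d at 461, 461 and 649 CPM. The groups did not overlap, which the rule for this list required, and every library labelled 6 d still held 461 CPM or more. The log2 change was −1.41 (SE 0.425, adjusted p = 0.0208), and the adjusted p was 0.0708 without replicate 3 of the 5th instar and 0.109 and 0.107 without replicate 1 or replicate 2 of the 6 d group. A neighbour in level at contig 000072F, 1055131 to 1055553, went from 883, 910 and 1080 CPM to 264, 261 and 430 CPM (log2 change −1.59, SE 0.425, adjusted p = 0.01). In both intervals replicate 3 was the highest library of either stage. At 000072F the adjusted p was 0.0706 without replicate 1 and 0.0700 without replicate 2 of the 6 d group. At contig 000705F, 32487 to 33015, the libraries went from 934, 742 and 1130 CPM to 158, 137 and 387 CPM (log2 change −2.04, SE 0.499, adjusted p = 0.00550).

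These 3 intervals are 464, 423 and 529 bp wide, and their direction rests on the scaling: with the loess offset their log2 changes were 1.38, 0.99 and 0.40. The interval at contig 000195F, 804101 to 808772, is wide at 4672 bp and fell more steeply. It had 394, 805 and 697 CPM at the 5th instar and 73.8, 79.5 and 65.5 CPM at 6 d. The larval libraries varied among themselves, with replicate 1 lowest, but all lay far above those labelled 6 d, which were close together. Its log2 change was −3.12 (SE 0.442, adjusted p = 4.67e-05), and it fell under each of the scalings tried.

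Among rising intervals with at least a 2-fold change and groups apart, the 4 named for the highest level were 2713 to 4876 bp wide. At contig 000926F, 11469 to 15425, an interval of 3957 bp, the libraries of the 5th instar stood at 13.1, 10.6 and 9.5 CPM and those labelled 6 d at 445, 359 and 475 CPM. Each larval library was low and each one labelled 6 d high, with no overlap. Its log2 change was 5.27 (SE 0.800, adjusted p = 8.95e-05). The libraries labelled prepupa varied at 76.7, 11.9 and 118 CPM, and those labelled 72 h at 16.3, 13.1 and 0.445 CPM.

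At contig 000304F, 133187 to 135899, the level went from 7.85, 4.82 and 5.63 CPM to 109, 94.6 and 130 CPM (log2 change 4.19, SE 0.720, adjusted p = 0.000293). At contig 000050F, 871192 to 874450, it went from 18.0, 21.3 and 20.9 CPM to 119, 162 and 98.1 CPM (log2 change 2.66, SE 0.381, adjusted p = 5.07e-05). Neither of these intervals had a library labelled 6 d near the larval range. The interval at contig 000513F, 105755 to 110630, was less even: 64.8, 40.8 and 18.9 CPM at the 5th instar against 155, 110 and 227 CPM at 6 d. The groups were apart, but replicates differed more than 2-fold in each. The log2 change was 1.98 (SE 0.505, adjusted p = 0.00733), and without replicate 3 of the 5th instar it was 1.61 with an adjusted p of 0.0540.

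A small part of the tested intervals had no read at all in one of the stages. Of the 258640 tested, 466 had no read in the 3 libraries of the 5th instar, and 441 of these were called rising. No read was counted in the 3 libraries labelled 6 d at 2272, of which 2211 were called falling. Such intervals passed the filter through reads in other libraries, so their direction was fixed in advance and these counts are a description. A fold against a group without reads is a lower bound, computed with 3 counts over the group. This is 0.128 CPM at the 5th instar and 0.101 CPM at 6 d. These bounds cover counting error only.

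The largest fall was at contig 000050F, 1567678 to 1568216, a site of 539 bp on the contig that also holds one of the highest rising intervals. Its libraries stood at 24.8, 40.8 and 40.1 CPM at the 5th instar, with 831 reads in all, and no read was found at 6 d. The level was at least 348-fold lower at 6 d (adjusted p = 8.86e-07). It was highest in the libraries labelled 72 h, at 69.7, 70.9 and 55.9 CPM. An interval of 310 bp at contig 000110F, 1502220 to 1502529, went from 13.8, 39.5 and 31.1 CPM to no read and was at least 278-fold lower (adjusted p = 1.75e-06). Intervals at contig 000647F, 3849 to 4235, and contig 000016F, 1676793 to 1677233, were at least 169-fold and 150-fold lower. Larval levels there were 12.9 to 23.9 CPM and 8.26 to 22.4 CPM. At contig 000262F, 537696 to 538267, the larval libraries did not behave alike, with 0.964 CPM in replicate 1 and 19.3 and 23.8 CPM in the others against no read at 6 d (at least 145-fold lower, adjusted p = 0.000518).

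The largest rise was at contig 000099F, 124970 to 125766, with no read at the 5th instar and 24.3, 13.1 and 12.2 CPM at 6 d. The level at 6 d was at least 129-fold higher (adjusted p = 2.59e-06). Libraries labelled prepupa had 2.22, 2.44 and 6.96 CPM, between the 2 groups. At contig 000301F, 137393 to 137949, no larval read faced 7.10, 8.06 and 8.26 CPM, at least 60.8-fold higher (adjusted p = 0.000243). The intervals at contig 000220F, 724884 to 725459, contig 000448F, 22326 to 22922, and contig 000093F, 293602 to 294205, had no larval read either and were at least 54.3-fold, 53.8-fold and 53.7-fold higher. Their libraries labelled 6 d ranged from 3.56 to 9.5 CPM. The intervals on 000301F, 000448F and 000093F lie in windows that were almost empty in at least 1 library, as described with the windows.

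**Figure D3:**
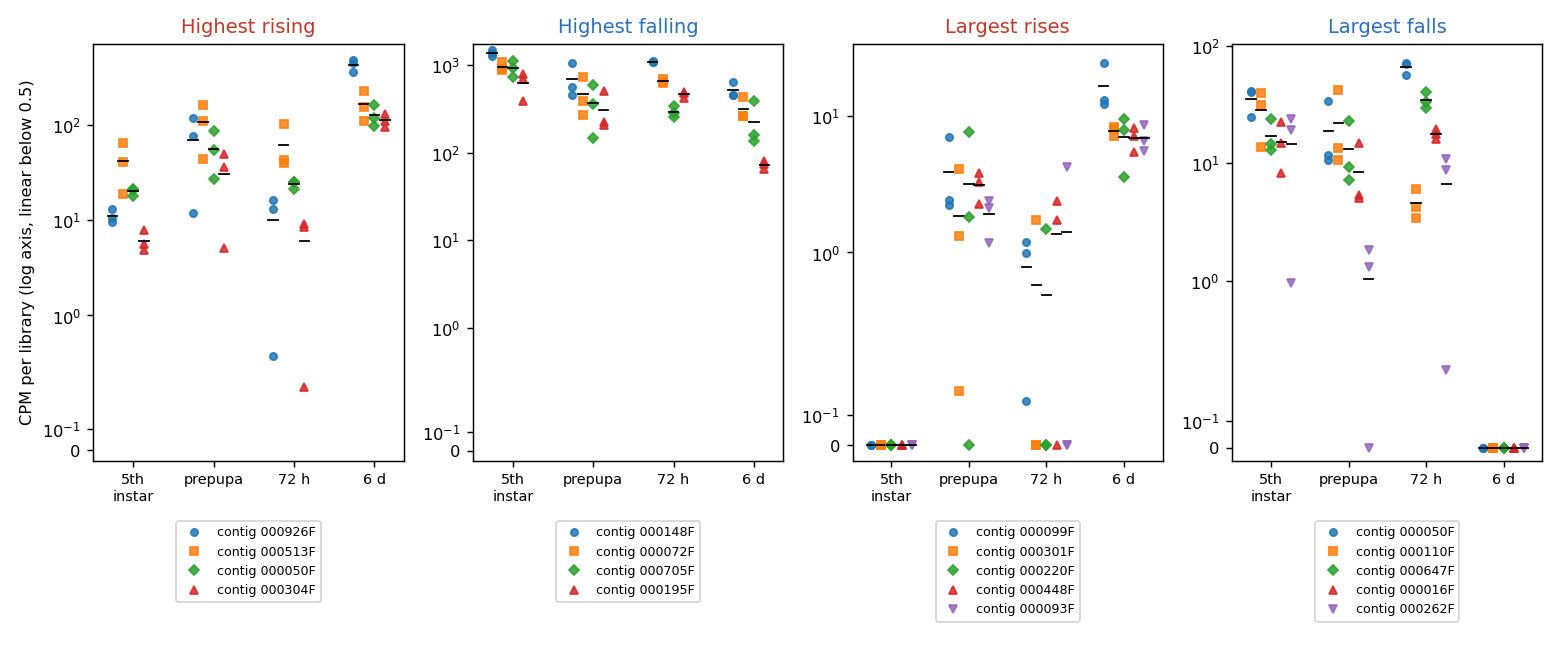
CPM in each of the 12 hindwing libraries (points; bars are group means; vertical axis logarithmic above 0.5 CPM and linear below it) for the rising and falling intervals with the highest levels and with the largest changes, named by contig. Points of the 5th instar and of 6 d do not overlap in any of the intervals drawn, because the rule for naming them required this.

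Some strong intervals held their level. At contig 000071F, 1741030 to 1744679, the libraries stood at 73.5, 110 and 90.3 CPM at the 5th instar and at 103, 94.1 and 85.6 CPM at 6 d. The groups overlapped, and the log2 change was 0.05 (SE 0.314). The intervals at contig 000051F, 2228371 to 2231814, and contig 000094F, 132721 to 138343, had log2 changes of 0.08 (SE 0.305) and 0.02 (SE 0.290) at group means of 65.2 to 70.2 CPM. All 3 are wider than 3 kb and were chosen for their small change, and with the loess offset they were called rising by 1.74, 1.64 and 1.5.

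The widest rising intervals measured 7086 bp and 5455 bp. At contig 000292F, 235675 to 242760, the level went from 38.5, 23.7 and 31.9 CPM to 103, 94.4 and 86.4 CPM (log2 change 1.59, SE 0.320, adjusted p = 0.00118). At contig 000297F, 305567 to 311021, it went from 29.5, 19.8 and 25.9 CPM to 74.9, 65.2 and 63.1 CPM (log2 change 1.44, SE 0.293, adjusted p = 0.00134). Both were clear of overlap, and at both the 72 h libraries lay within or below the larval range. The widest falling intervals, of 6317 bp at contig 000016F, 1387241 to 1393557, and of 6068 bp at contig 000047F, 983464 to 989531, fell by 1.59 (SE 0.392, adjusted p = 0.00585) and by 1.23 (SE 0.390, adjusted p = 0.0279) on the log2 scale. Their larval libraries ranged over 190 to 350 CPM and 83.0 to 119 CPM, and those labelled 6 d over 92.0 to 100 CPM and 41.4 to 49.8 CPM. With the loess offset these 2 log2 changes were 0.55 and 0.68. Leaving out any of 5 libraries, all but replicate 1 of the 5th instar, took the adjusted p at 000047F to between 0.0763 and 0.101.

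Intervals that changed in one direction lay near each other. Of 15783 pairs of successive called intervals less than 1 kb apart, 86.9% had the same direction. The share was 77.6% at 1 to 5 kb, 73.1% at 5 to 20 kb, 68.6% at 20 to 100 kb and 57.8% over 389 pairs further apart. Between a called interval and the 50th next one on the contig, at a median distance of 298 kb, it was 60.7%. Of all calls 65.3% were falling and 34.7% rising, so pairs taken without regard to place would also agree more often than not. Successive tested intervals called in one direction, with no other tested interval between them, formed 15107 rising and 25592 falling runs (a single interval counted as one), of which 162 and 499 held at least 5 intervals. The longest rising run had 18 intervals over contig 000193F, 85244 to 232351, with a median log2 change of 6.75. The longest falling run had 21 intervals over contig 000219F, 521882 to 560733, with a median log2 change of −3.86.

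Whole stretches of some contigs changed together. Summed over windows of 100 kb, 2518 of 5738 windows (43.9%) were called by the same test, 1172 rising (20.4%) and 1346 falling (23.5%). With library totals in place of TMM factors 1394 windows rose and 1065 fell. The changes of windows were smaller than those of intervals, with median log2 changes of 0.68 and −0.76, and 328 rising and 455 falling windows changed at least 2-fold. Windows are named here for the largest change of these sums, so the calls of the intervals within them are a description. The window at contig 000414F, 200001 to 300000, had 71.8, 63.6 and 67.6 CPM at the 5th instar and 3.12, 5.46 and 3.93 CPM at 6 d. The larval libraries were alike and those labelled 6 d all low, with a log2 change of −4.01 (SE 0.255, adjusted p = 5.01e-06), and 26 of its 28 tested intervals fell. The first window of contig 000123F, 1 to 100000, went from 36.3 ± 3.10 CPM to 3.46 ± 0.0735 CPM (SD, n = 3), with 12 of 13 tested intervals falling. That of contig 000847F went from 45.0 ± 6.19 CPM to 5.16 ± 1.32 CPM (SD, n = 3), with 18 of 20. In all 3 windows the libraries labelled 72 h were above the larval mean.

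The named rising windows started from almost no larval signal. In contig 000219F, 1 to 100000, the libraries went from 4.93, 1.93 and 3.40 CPM to 77.9, 63.6 and 92.0 CPM (log2 change 4.51, SE 0.592, adjusted p = 0.000166), and all 11 tested intervals rose. The longest falling run lies further along the same contig. The first window of contig 000095F went from 0.467 ± 0.239 CPM to 34.9 ± 5.54 CPM (SD, n = 3, adjusted p = 0.000632), with 9 of 10 tested intervals rising. Its libraries labelled 72 h stood at 0.20, 0.00 and 0.00 CPM, and replicate 2 of the prepupa at 1.08 CPM. A window with so little signal in most libraries falls outside the rule given below. In contig 000421F, 200001 to 300000, all 10 tested intervals rose, and the summed level went from 0.00, 0.227 and 0.352 CPM to 42.1, 46.9 and 41.3 CPM (adjusted p = 0.000472). Its larval libraries were almost empty by the rule given below, and replicate 2 of the prepupa stood at 0.539 CPM. The part of losses of reads over whole stretches in these rises was not tested.

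**Figure D4:**
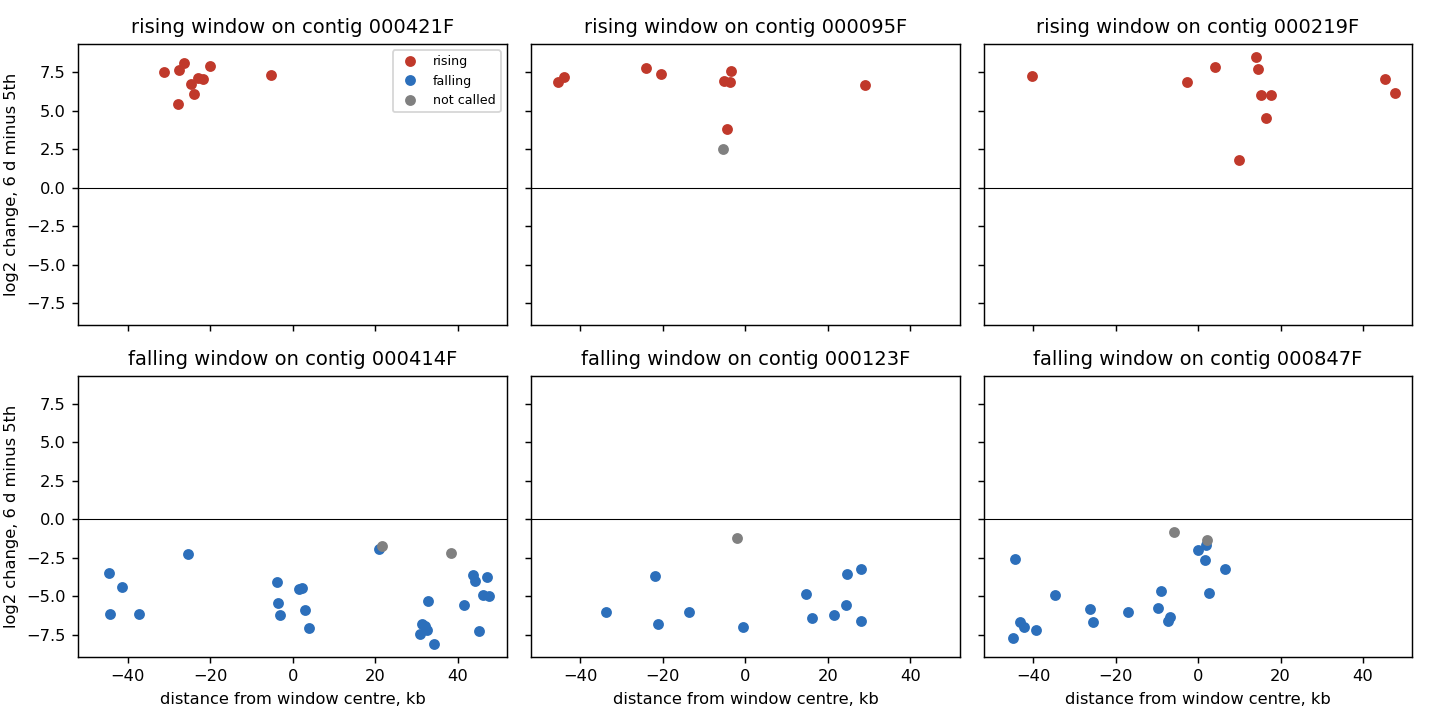
Log2 change from the 5th instar to 6 d of each tested interval (points, red rising, blue falling, grey not called) against its distance in kb from the window centre, for the 3 rising and the 3 falling windows of 100 kb with the largest changes. All 10 tested intervals rose on contig 000421F and 26 of 28 fell on contig 000414F. The windows were chosen for the change of the sum of their intervals, so a shared direction within them is a description.

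Such near-empty stretches were also seen in single libraries. A window was counted as almost empty in a library at under 10% of its median over the 12 libraries, on CPM of library totals without TMM factors, which the next values use too. Of 5267 windows with a median of at least 5 CPM, 52, 87 and 75 were almost empty in the libraries of the 5th instar and 9, 11 and 12 in those labelled 6 d. The 196 windows concerned held 0.487% of all tested intervals, 1.68% of the rising and 0.555% of the falling ones. They held 207 of the 1551 rises of at least 8-fold (13.3%) and 1.91% of the falls of that size. Of rising intervals without a larval read 17.7% lay there, and of falling ones without a read at 6 d 3.30%. Among these windows 176 were almost empty in the 5th instar only and 18 in the 6 d group only. Contig 000488F shows the pattern, with 3.58, 0.318 and 47.0 CPM at the 5th instar and 118, 109 and 72.9 CPM at 6 d. This contig and contig 000288F were chosen after their values were seen. Contig 000288F was almost without reads in each larval library, at 1.15, 2.12 and 0.668 CPM against 118, 112 and 111 CPM at 6 d, but its libraries labelled 72 h had 0.657, 23.3 and 1.09 CPM. The part of such losses of reads over whole stretches in the largest rises was not tested beyond this. Without the 196 windows 20026 intervals were called rising and 37488 falling. Windows with a median under 5 CPM were not examined, so stretches almost empty in most libraries could not be flagged. The calls without the flagged windows therefore say nothing about the part of such stretches.

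Contigs differed in their balance, and on the 29 contigs described first the rising calls depended on replicate 3 of the 6 d group. Of 465 contigs with at least 20 tested intervals, 337 had more falling and 116 more rising calls. The medians were 6.44% rising and 15% falling intervals per contig. Contig 000418F had 15 rising and no falling calls among 23 tested intervals, and contig 000220F had 27 rising and none falling among 42. At the other end, 18 of 20 tested intervals fell on contig 000847F and 20 of 23 on contig 000514F, with none rising on either. The summed level of contig 000514F, as CPM of library totals, was 98.5, 84.7 and 98.0 CPM at the 5th instar and 25.8, 23.6 and 26.0 CPM at 6 d.

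The change in the hindwing was set beside the forewing in intervals matched by a reciprocal overlap of at least 80%. Of the 57650 called hindwing intervals 30637 (53.1%) had a partner that entered the test, 9057 rising and 21580 falling. Across the 126344 matched intervals the hindwing change from the 5th instar to 6 d correlated with the forewing change between the same labels at r = 0.149 (Spearman 0.102). With the forewing change from the 5th instar to the prepupa it correlated at r = 0.890 (Spearman 0.861). The intervals are not independent, and the libraries of the wings are separate.

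The change differed between the wings at 30604 matched intervals (24.2%) when the same labels were compared, by the interaction term of an edgeR fit of all 24 libraries. It was higher in the hindwing at 11529 and lower at 19075 of them. Of the hindwing rising intervals, 13.5% rose and 5.31% fell in the forewing between the 5th instar and 6 d, where 12.3% of all matched intervals rose and 10.3% fell. Of the falling ones, 28.4% fell and 9.38% rose. The median forewing change was 0.00 for the rising and −0.35 for the falling list, against hindwing medians of 1.63 and −1.90 in the same fit.

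Set against the forewing change from the 5th instar to the prepupa, the difference was past the threshold at none of the 126344 intervals by the same edgeR test, with 3817 (3.02%) at an unadjusted p under 0.05. The quartiles of the difference were −0.40 and 0.36 with a median standard error of 0.633 on the log2 scale, so moderate differences of single intervals were not detectable. In the forewing prepupa 78.1% of the hindwing rising intervals rose (15.1% of all matched intervals did) and 82.5% of the falling ones fell (19.4% of all). The median forewing changes were 1.43 and −1.80. The signs agreed at 99.5% of the rising and 99.2% of the falling intervals.

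**Figure D5:**
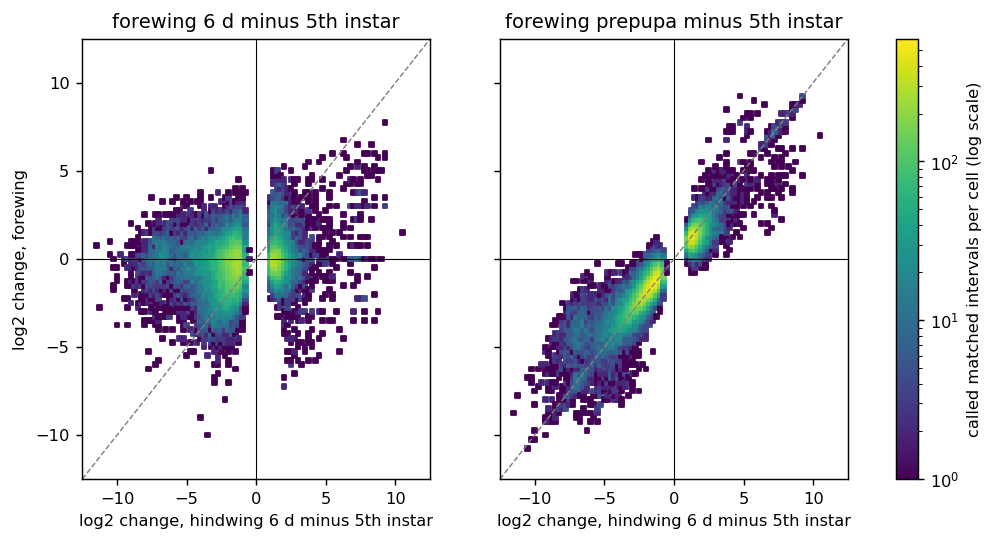
Log2 change of called hindwing intervals from the 5th instar to 6 d (horizontal axis) against the log2 change of their matched forewing intervals (vertical axis) from the 5th instar to 6 d (left) and to the prepupa (right), colour giving the number of intervals on a log scale and the dashed line equality. Points follow the dashed line on the right; the streaks far from zero come from intervals without reads in a group, whose fitted values depend on the prior count.

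Intervals without reads followed the same order. Of 1051 matched falling intervals without a read in the hindwing 6 d libraries, 27.1% had no read in the forewing prepupa libraries, where 0.613% of all matched intervals had none, and each had reads in the forewing 6 d libraries. Of 141 matched rising intervals without a read in the hindwing 5th instar, 67.4% had none in the forewing 5th instar, against 0.188% of all. At the largest fall, contig 000050F, 1567678 to 1568216, the forewing libraries stood at 34.5 ± 8.76 CPM at the 5th instar, 53.7 ± 1.55 CPM at 6 d and 31.7 ± 5.40 CPM at 72 h (SD, n = 3). Those labelled prepupa held 2 reads in all. The difference from the forewing change between the same labels had an adjusted p of 1.16e-08.

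Of the 25 intervals described by name, 20 had a tested forewing partner. The highest of the named rising intervals, at contig 000926F, had a forewing log2 change of −0.21 to 6 d (adjusted p = 0.873). To the prepupa the forewing change there was 5.44 (adjusted p = 1.34e-05), against 5.42 in the hindwing. The wide falling interval at contig 000195F had forewing changes of −0.66 to 6 d (adjusted p = 0.108) and −2.85 to the prepupa (adjusted p = 1.39e-07), against −2.96 in the hindwing. At contig 000705F the forewing fell in both contrasts, with log2 changes of −2.12 to 6 d (adjusted p = 0.000317) and −2.03 to the prepupa (adjusted p = 0.000413) and a hindwing change of −1.89. The 2 forewing contrasts share their libraries of the 5th instar.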

How the data were processed

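ATAC-seq libraries of whole wing tissue were prepared with hyperactive Tn5, per the labels' protocols. The authors deposited raw read counts of intervals in a table for each wing; Bowtie2 and deepTools are named in the submitters' processing notes, without versions or roles. Build, peak caller, duplicate handling and read shift are stated in no label or file header read here; duplicates left in would overstate precision.

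Counts of the 12 hindwing libraries were fitted with edgeR 4.0.16 in R 4.3.3 (TMM scaling, filterByExpr with minimum count 10 and total 15) and tested by quasi-likelihood with Benjamini-Hochberg adjustment (call under 0.05). CPM are TMM-normalized. Median counts per tested interval were 12 to 18 in the 6 libraries compared. Windows of 100 kb with at least 5 intervals were tested on summed counts. Wings were matched with GenomicRanges 1.54.1 (reciprocal overlap 80%) and tested by interaction in 24 libraries, scaled to whole-table totals. All table columns were mapped by name. Scripts were tested on simulated data.

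Intervals were named by rule, at most 1 per contig in each list. For each direction the 5 largest changes were taken (at least 5 CPM in the higher group, groups apart). The 4 highest levels (at least a 2-fold change, groups apart) and the 2 widest intervals followed. The 3 largest window changes in each direction needed at least 10 tested intervals and groups apart. Steady intervals were the 3 highest of the uncalled ones with an absolute log2 change under 0.1. Comparison, rules and lists were chosen with earlier results of these data known. Alternatives varied scaling, filter, libraries, tool (DESeq2 1.42.0, glmTreat), window size and overlap.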

Additional observations from a re-analysis of the deposited data

Results flagged for a closer look

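The change from the 5th instar to 6 d differed between the wings at 30604 of 126344 matched intervals by the interaction test of edgeR. Hindwing and forewing libraries under the same pair of labels thus gave different changes at 24.2% of intervals. Among hindwing rising intervals the difference was past the threshold at 50.9%, with a median of 1.65 on the log2 scale, and among falling ones at 51.1%, with a median of −1.59. Both lists were chosen by the hindwing change that enters the difference, so these shares are a description.

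The largest positive difference was at contig 000265F, 159662 to 160093 (adjusted p = 0.0376). It had no read in the hindwing 5th instar and 5.27, 3.87 and 5.94 CPM in the hindwing 6 d libraries, while the forewing had 2 reads in all at the 5th instar and none at 6 d. Forewing libraries labelled prepupa had 2.73, 6.59 and 3.62 CPM there. The largest negative difference was at contig 000050F, 1567678 to 1568216 (adjusted p = 1.16e-08). Hindwing libraries there stood at 23.8, 38.1 and 38.1 CPM at the 5th instar and had no read at 6 d, on the scale of the joint fit. Forewing libraries stood at 25.8, 34.3 and 43.3 CPM at the 5th instar and 54.3, 52 and 54.9 CPM at 6 d.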

How the results depend on the processing

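The hindwing calls numbered 57650 (20025 rising, 37625 falling). They numbered 90910 without a filter (65179 falling), 29279 with at least 50 counts in 3 libraries (13938 rising, 15341 falling) and 20244 when tested against a 2-fold change by glmTreat (2655 rising, 17589 falling). Without TMM factors 46012 rose and 27622 fell. Other scalings, DESeq2 and fits of fewer groups gave 55313 to 60228 calls. Leaving out single libraries gave 42492 to 52781 calls, 11177 to 14853 rising and 31315 to 38074 falling, and kept 65.9% to 78.3% of the calls.

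Windows rising and falling numbered 69 and 97 by glmTreat, 2186 and 2481 at 50 kb, and 698 and 707 at 200 kb, with fewer or more windows by construction; leaving out single libraries gave 904 to 1150 and 1059 to 1304. Wing differences under the same labels numbered 19443 with at least 50 counts and 11101 with a 95% overlap, where fewer intervals were tested. They numbered 25806 to 30279 without single libraries of the groups compared. Without single forewing prepupa libraries, which enter only the filter, the scaling and the estimate of spread, they numbered 30179 to 30425. Against the forewing prepupa they stayed at 0 under each of these settings, with 789 to 4206 at an unadjusted p under 0.05.

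Without the 29 contigs on which replicate 3 of the 6 d group stood apart, an alternative added after seeing the data, as was leaving out almost empty windows, 57779 intervals and 1182 rising and 1324 falling windows were called, and 30518 wing differences.

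Same-numbered libraries did not deviate together (correlations of 0.011, 0.007 and −0.001), so the numbers were not taken as pairs; with the replicate block 54616 intervals were called, 18264 rising and 36352 falling.

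Of 420 values of the 25 named intervals under 17 settings, 401 kept direction and call, and 11 lost the call when a library was left out. The loess offset reversed 5, at contigs 000148F (1.38), 000072F (0.99), 000705F (0.40), 000016F (0.55, the wide interval) and 000047F (0.68), and brought the 3 steady ones past the threshold. It removes any trend of the change with level by construction, and whether the trend is technical was not tested. The median tested interval held 12 to 18 counts per library, which limits weakly covered intervals most.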
